A study of Mus musculus with 18 samples.

Results

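The T cell receptor complex and its coreceptors were followed in the choroid plexus, the epithelial tissue in the ventricles of the brain that secretes its fluid, through 10 genes taken by name from the 50584 genes counted. They are Trac, Trbc1 and Trbc2, the constant chains of the alpha and beta receptor; Cd3d, Cd3e, Cd3g and Cd247, the signalling chains; and Cd4, Cd8a and Cd8b1, the coreceptor chains. All 10 were present and all 10 passed the filter on low counts, which 16598 genes passed. RNA was sequenced from MRL/lpr mice, a strain with a lupus-like autoimmune disease that carries the lpr allele of Fas, and from MRL/+ mice, the matching strain with an intact Fas gene. There were 6 MRL/lpr libraries at 12 weeks, 6 at 16 weeks, and 3 MRL/+ libraries at each age. Each MRL/+ group held 0 to 20 counts in all of any of the 10 genes, so these passed the filter through MRL/lpr. The labels give no sex, no treatment and no animal of origin, so the p-values rest on the spread among libraries, which may be technical.

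An alpha beta T cell recognises peptides on MHC molecules with a receptor of 1 alpha and 1 beta chain, and the CD3 chains and the zeta chain of Cd247 carry that signal inside. CD4 binds MHC class II and CD8 binds MHC class I, and both bring the kinase Lck to the receptor. Mice with the lpr allele build up T cells that carry the alpha beta receptor and CD3 but neither coreceptor, the double-negative T cells. The ratio of coreceptor to CD3 transcripts within a library is therefore given beside the levels.

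Total counts ran from 11164284 to 14602253 per library. The 12 markers of choroid plexus epithelium summed to between 158200 and 317100 CPM (the count scaled to the size of the library) in every library, so the tissue label was met. Fas was counted over whole exons, which does not separate shortened from whole transcripts, so its 14 to 67 counts in MRL/lpr and 14 to 28 in MRL/+ do not check the strain labels. Markers of other brain regions or muscle stood apart in 4 libraries. Pineal markers summed to 120.3 and 94.2 CPM in MRL/lpr 12 weeks replicates 1 and 4, against 27.1 to 53.8 in the other libraries. Cerebellum markers reached 444 CPM in MRL/+ 12 weeks replicate 1, against 79.1 to 270.5 in the other libraries. Muscle markers reached 614 CPM in MRL/+ 16 weeks replicate 1, against 43.8 to 104.3 in the others. MRL/lpr 16 weeks replicate 1 and MRL/lpr 12 weeks replicate 2, at 270.5 and 256.4 CPM of cerebellum markers, are not among these 4. Counts of calls are also given without these 4 libraries, a fit that called 34 genes in all at 12 weeks and 503 at 16 weeks.

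The 2 beta constant genes lie beside each other on chromosome 6. Their first exons are nearly the same sequence, which bears on how reads from them can be told apart, while their later exons were not compared. In the GRCm38 annotation their first exons are 375 bases long, and 374 of the 375 bases are identical. The single difference is C260A, with the base of Trbc1 first and positions counted from 1 at the start of the exon. Positions 221 to 300 are shown because they hold that base, which is in capitals, and they lie at chr6:41538438-41538517 and chr6:41546950-41547029 on the plus strand.
Trbc1: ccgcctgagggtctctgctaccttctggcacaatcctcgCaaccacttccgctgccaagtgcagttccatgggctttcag
Trbc2: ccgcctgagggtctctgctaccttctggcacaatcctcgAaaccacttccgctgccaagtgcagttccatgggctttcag
A run of 259 bases is shared without a difference, so reads inside it match both genes. How the counting treated such reads is not given in the sources used here, so the split between Trbc1 and Trbc2 is uncertain. If such reads were left out of the counts, the sum of the genes is too low as well.

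At both ages every one of the 10 genes was higher in MRL/lpr. In edgeR's quasi-likelihood test over all genes, with Benjamini-Hochberg adjustment, 10 of 10 passed at an adjusted p under 0.05 at 12 weeks, where 5.01% of the 16598 genes were called higher and 1.34% lower. At 16 weeks 10 of 10 passed, where 8.49% of all genes were called higher and 2.64% lower. The median log2 fold change of the 10 genes was 6.70 at 12 weeks, or 6.36 with the 3 genes that had no control count set at a lower bound, against -0.013 over all genes. The median at 16 weeks was 7.39 against 0.025. Every MRL/lpr library lay above every MRL/+ library for all 10 genes at both ages, as was the case for 8.59% of all genes at 12 weeks and 9.91% at 16 weeks. Since the 10 genes entered the test through the strain where they are high, the shares over all genes are not a like background for them. In bulk tissue, fewer cells of a type and less RNA per cell cannot be told apart.

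**Figure D1:**
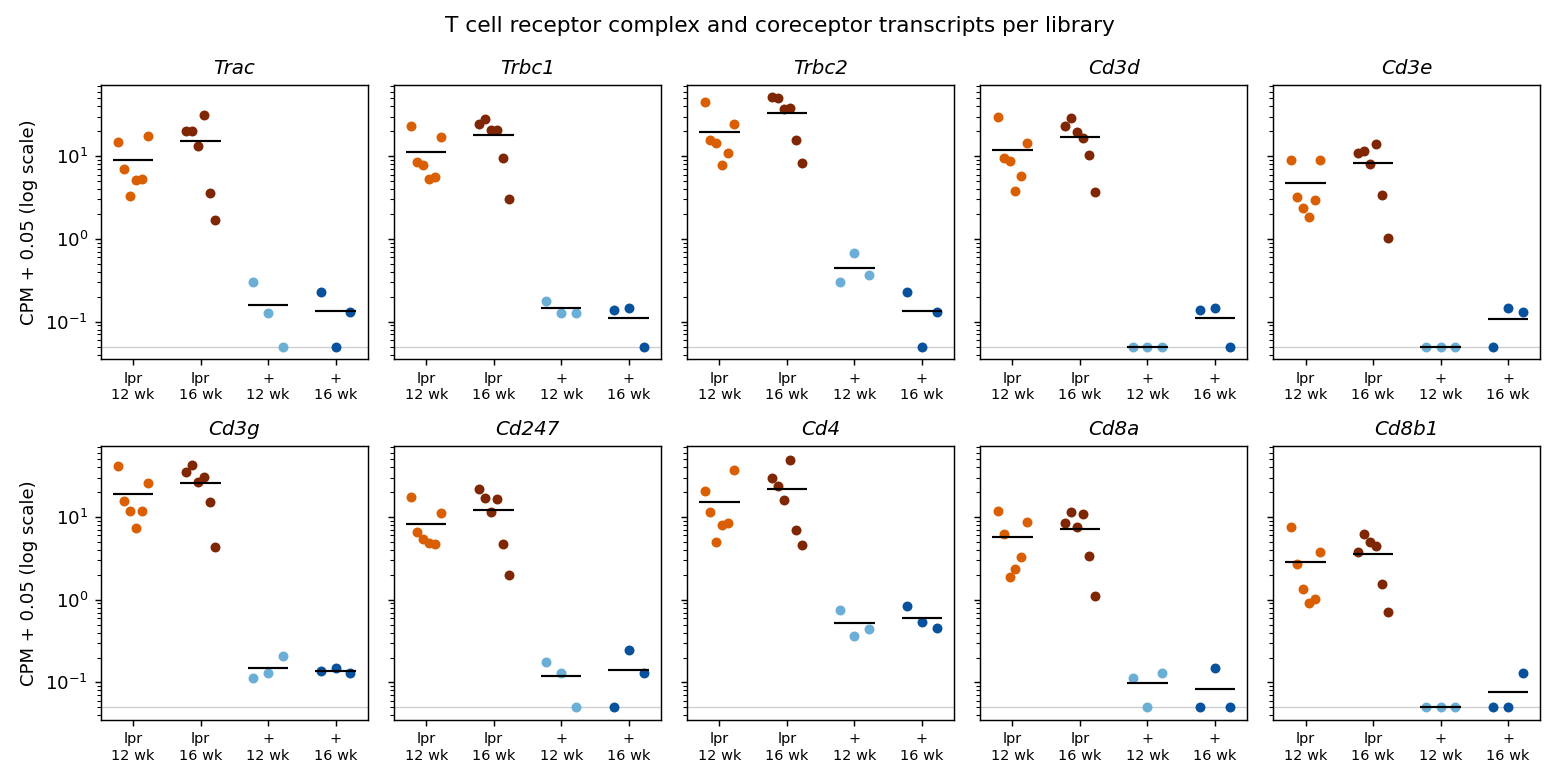
CPM per library for the 10 genes, with 0.05 added and a log axis, by strain and age; points are libraries in order of replicate number, black lines are group means and the grey line marks a count of 0. MRL/lpr libraries (lpr) sit above all MRL/+ libraries (+) in each panel, and MRL/lpr 16 weeks replicate 6 is the lowest of the 12 MRL/lpr libraries for 9 of the 10 genes.

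Trac (GRCm38 chromosome 14, 54220521 to 54224206, plus strand) codes for the constant region of the alpha chain. At 12 weeks the MRL/lpr libraries ran from 3.22 to 17.6 CPM with a median of 6.14, and the MRL/+ libraries held 0.254, 0.0784 and 0 CPM. At 16 weeks they ran from 1.64 to 31.6 CPM with a median of 16.6, against 0.175, 0 and 0.0798. Trac had the widest range of the 10 genes over the 12 MRL/lpr libraries, 19.2-fold from the lowest to the highest, and the strains did not overlap. Mean levels were 8.84 ± 5.92 (SD, n = 6) against 0.111 ± 0.130 (n = 3) at 12 weeks, a ratio of 79.7, with a log2 fold change of 6.11 (SE 1.15, edgeR adjusted p 0.00514). At 16 weeks the log2 fold change was 7.28 (SE 1.24, edgeR adjusted p 0.00209), and it was 8.15 without MRL/+ 16 weeks replicate 1. Without MRL/+ 12 weeks replicate 1 that of 12 weeks was 7.52.

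Trbc1 (chromosome 6, 41538218 to 41539881, plus strand) and Trbc2 (chromosome 6, 41546730 to 41548352, plus strand) are alternative constant regions of the beta chain, and a given beta chain uses one of them. Trbc1 ran from 5.26 to 23.4 CPM (median 8.11) in MRL/lpr at 12 weeks and from 2.95 to 28.4 (median 20.6) at 16 weeks. The MRL/+ libraries held 0.127, 0.0784 and 0.0784 CPM of it at 12 weeks and 0.0877, 0.0975 and 0 at 16 weeks, which is 4 and 2 counts in all. Its log2 fold change was 6.73 (SE 0.94, edgeR adjusted p 0.0014) at 12 weeks and 8.02 (SE 1.04, adjusted p 0.000646) at 16 weeks. Trbc2 ran from 7.69 to 45.6 CPM (median 15) in MRL/lpr at 12 weeks, against 0.254, 0.627 and 0.314 in MRL/+. At 16 weeks it ran from 8.28 to 51.4 (median 37.7), against 0.175, 0 and 0.0798. MRL/+ held 16 counts of Trbc2 at 12 weeks, found in all 3 libraries, and 3 counts at 16 weeks. Its log2 fold change was 5.62 (SE 0.82, edgeR adjusted p 0.0016) at 12 weeks and 8.44 (SE 1.03, adjusted p 0.000426) at 16 weeks, or 9.30 without MRL/+ 16 weeks replicate 1. The test of the difference between the ages gave 2.82 (SE 1.54, adjusted p 0.375) and did not pass.

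Cd3d, Cd3e and Cd3g, the delta, epsilon and gamma chains, lie together on chromosome 9 (44981786 to 44987339 on the plus strand, 44998740 to 45009627 on the minus strand and 44969572 to 44980431 on the minus strand). Cd3g ran from 7.23 to 41.4 CPM (median 13.8) in MRL/lpr at 12 weeks against 0.0636, 0.0784 and 0.157 in MRL/+, and from 4.34 to 42.6 (median 28.5) at 16 weeks against 0.0877, 0.0975 and 0.0798. The 12 week means of 18.9 ± 12.7 (n = 6) and 0.0996 ± 0.0502 (n = 3) stood at a ratio of 190.1.
Cd3d ran from 3.75 to 29.4 CPM (median 9.03) at 12 weeks and from 3.69 to 29.1 (median 18.2) at 16 weeks in MRL/lpr. All 3 MRL/+ libraries of 12 weeks were at 0 counts of Cd3d, which makes the level at least 159.7-fold higher when set against 3 counts over the pooled control group. At 16 weeks MRL/+ held 2 counts against 1378, a ratio of 302 (exact 95% interval 83.5 to 2496, counting error only).
Cd3e ran from 1.77 to 9.01 CPM (median 3.03) at 12 weeks and from 0.983 to 14 CPM (median 9.42) at 16 weeks. Its MRL/+ libraries of 12 weeks were also at 0, for a level at least 64.1-fold higher, and those of 16 weeks held 0, 0.0975 and 0.0798 CPM. The fitted log2 fold changes of Cd3d, Cd3e and Cd3g at 16 weeks were 7.97 (SE 1.12), 6.90 (SE 1.17) and 8.04 (SE 1.01), with edgeR adjusted p of 0.00144, 0.00254 and 0.000472. At 12 weeks the adjusted p were 0.0016, 0.00353 and 0.000652. Of the exon bases of Cd3e, 135 overlap an unnamed gene model on the other strand, which held 25 counts over the 12 MRL/lpr libraries against 1032 for Cd3e.

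The stretch from 250 bases before to 50 bases after the start of each CD3 gene is shown because the 3 genes sit in 1 cluster and moved together, and capitals mark the motifs searched on both strands. The set of RefSeq windows (GRCm38.p6) used here held 5 of the 10 genes, namely Cd3d, Cd3e, Cd3g, Cd247 and Cd8a. The windows below are chr9:44981536-44981835 (plus strand), chr9:45009562-45009861 (minus strand) and chr9:44980382-44980681 (minus strand).
Cd3d: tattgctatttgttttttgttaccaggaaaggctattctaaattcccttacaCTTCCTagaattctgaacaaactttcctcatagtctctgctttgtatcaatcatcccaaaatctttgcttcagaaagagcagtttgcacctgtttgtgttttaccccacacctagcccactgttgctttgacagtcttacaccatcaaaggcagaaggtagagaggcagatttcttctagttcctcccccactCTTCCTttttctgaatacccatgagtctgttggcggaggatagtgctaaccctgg
Cd3e: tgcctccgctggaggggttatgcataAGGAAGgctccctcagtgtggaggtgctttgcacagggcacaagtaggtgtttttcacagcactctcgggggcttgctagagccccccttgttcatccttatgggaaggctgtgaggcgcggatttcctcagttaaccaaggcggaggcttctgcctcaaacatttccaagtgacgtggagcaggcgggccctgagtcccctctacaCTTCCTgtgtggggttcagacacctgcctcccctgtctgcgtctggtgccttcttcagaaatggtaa
Cd3g: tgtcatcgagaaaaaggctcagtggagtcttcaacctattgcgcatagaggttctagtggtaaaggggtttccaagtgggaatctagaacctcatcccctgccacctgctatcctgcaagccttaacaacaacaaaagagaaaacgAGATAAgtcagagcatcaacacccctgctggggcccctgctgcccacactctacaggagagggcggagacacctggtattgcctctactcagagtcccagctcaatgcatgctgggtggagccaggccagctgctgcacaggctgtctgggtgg
The ETS motif AGGAAG (reverse CTTCCT) was in 3 of the 5 windows, those of Cd3d, Cd3e and Cd247, with 2 matches in each, and in 35.1% of all 27025 windows searched. The GATA motif AGATAA (reverse TTATCT) was in 1, that of Cd3g, and in 11.4% of all. The RUNX motif TGTGGT (reverse ACCACA) was in 0 of the 5 and in 16.9% of all. These motifs do not overlap each other, and a match describes only the letters of the window.

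Cd247 (chromosome 1, 165788681 to 165877277, plus strand) codes for the zeta chain, which natural killer cells also use. It ran from 4.62 to 17.3 CPM (median 5.96) in MRL/lpr at 12 weeks against 0.127, 0.0784 and 0 in MRL/+. At 16 weeks it ran from 1.97 to 21.5 (median 13.9) against 0, 0.195 and 0.0798. MRL/+ held 3 counts at each age, and the ratios of pooled counts were 113 (exact 95% interval 38.4 to 548) and 147 (50 to 712). Log2 fold changes were 6.66 (SE 1.02, edgeR adjusted p 0.00205) and 6.96 (SE 1.02, adjusted p 0.0013), or 7.41 without MRL/+ 12 weeks replicate 1 and 7.90 without MRL/+ 16 weeks replicate 2. Its exons overlap those of Pou2f1, a gene on the other strand that codes for the transcription factor Oct-1, over 3007 of 5329 bases. Pou2f1 held 74 to 217 counts in each MRL/+ library, where Cd247 held 0 to 2, and 1582 counts over the 12 MRL/lpr libraries, where Cd247 held 1655. The strand setting is not known, and the part of Pou2f1 in the counts of Cd247 was not tested. Natural killer cell markers summed to 0.394 to 3.50 CPM in MRL/lpr and 0 to 0.351 in MRL/+. Of the 6 markers 2 were abundant enough to test and 1 passed higher at each age, Klre1, and 1 of the 6 was at 0 in all libraries. The share of all genes called higher was 5.01% at 12 weeks and 8.49% at 16 weeks. Klre1 held 1 count in MRL/+ at each age and passed the filter through MRL/lpr, so that share is not a like background for it. With those 4 libraries left out, Klre1 passed at 16 weeks and 0 of the markers at 12 weeks. Their part in the level of Cd247 was not tested.

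Cd4 (chromosome 6, 124864692 to 124888221, minus strand), the coreceptor for MHC class II, had the smallest fitted fold change of the 10 genes at both ages, and the controls held 20 counts of it at 12 weeks and 19 at 16 weeks. In MRL/lpr it ran from 4.92 to 37.1 CPM (median 9.88) at 12 weeks and from 4.51 to 49.4 (median 19.9) at 16 weeks. The MRL/+ libraries held 0.699, 0.313 and 0.392 CPM at 12 weeks and 0.789, 0.487 and 0.399 at 16 weeks. Replicate 6 was the highest MRL/lpr library at 12 weeks and replicate 4 at 16 weeks, and the strains did not overlap. Means were 15 ± 12 (n = 6) against 0.468 ± 0.204 (n = 3) at 12 weeks, a ratio of 32.1, and 21.7 ± 16.6 against 0.558 ± 0.205 at 16 weeks, a ratio of 38.9. The log2 fold changes were 4.95 (SE 0.92, edgeR adjusted p 0.00477) and 5.26 (SE 0.93, adjusted p 0.00254). Whether Cd4 differed from the other members in fold change was not tested.

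Cd8a (chromosome 6, 71373427 to 71379173, plus strand) and Cd8b1 (chromosome 6, 71322788 to 71337494, plus strand) code for the alpha and beta chains of CD8. Cd8a ran from 1.85 to 11.8 CPM (median 4.66) in MRL/lpr at 12 weeks and from 1.06 to 11.5 (median 7.99) at 16 weeks. MRL/+ held 2 counts of it at 12 weeks and 1 at 16 weeks, so that the ratios of pooled counts were 116 (exact 95% interval 31.9 to 960.1) and 251 (44.8 to 9921). Cd8b1, the chain found on conventional cytotoxic T cells beside the alpha chain, ran from 0.854 to 7.42 CPM (median 1.99) and from 0.656 to 6.20 (median 4.01). It was at 0 in all 3 MRL/+ libraries of 12 weeks, for a level at least 38-fold higher, and 1 count was found at 16 weeks. Log2 fold changes at 16 weeks were 7.50 (SE 1.2, edgeR adjusted p 0.00164) for Cd8a and 6.53 (SE 1.27, adjusted p 0.00487) for Cd8b1, and those of 12 weeks passed with adjusted p of 0.00286 and 0.00536. The controls of 16 weeks held 1 count of each, and without the library that held it the fits gave 9.54 for Cd8a and 8.53 for Cd8b1, sizes that depend on the prior count. Both calls held.

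**Figure D2:**
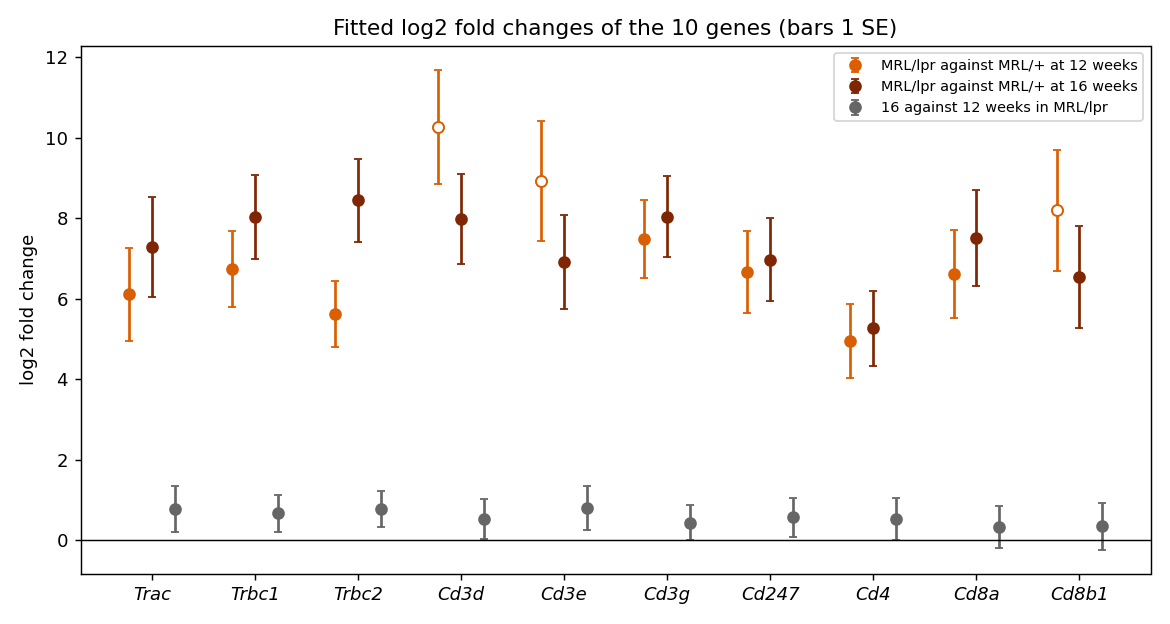
Fitted log2 fold change of each gene with 1 SE for the strain comparison at 12 and 16 weeks and for 16 against 12 weeks in MRL/lpr; open circles mark fits with no control count, whose size depends on the prior count of the fit and is no bound. Strain differences lie between 4.95 and 10.27 and age differences between 0.33 and 0.80.

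All 10 strain differences passed at both ages when any single library was left out. Without the 4 libraries that stood apart, all 10 passed at 16 weeks, while at 12 weeks 4 passed, Cd3d, Cd3g, Trbc1 and Trbc2, in a fit that called 34 genes in all. The other 6 then had log2 fold changes of 5.48 for Cd4 to 8.81 for Cd3e, with edgeR adjusted p of 0.0555 to 0.095.

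Between 12 and 16 weeks in MRL/lpr, none of the 10 genes passed. Their log2 differences were all above 0, from 0.33 for Cd8a to 0.80 for Cd3e, with the smallest unadjusted p at 0.0977 and the smallest edgeR adjusted p at 0.779. In this comparison 0.0361% of all genes were called, 0.0181% higher and 0.0181% lower, 0 of the 10 genes had an unadjusted p under 0.05, and DESeq2 and limma with sample weights also called 0 of 10. The spread within an age was wide: Cd3g had a coefficient of variation of 66.9% at 12 weeks and 54.2% at 16 weeks, and Cd4 80.2% and 76.6%. In MRL/+ 0 of 10 passed between the ages (smallest edgeR adjusted p 0.509) and the strain by age interaction gave 0 of 10 (smallest 0.375), with 0% of all genes called in each and 2173 and 2286 genes at an unadjusted p under 0.05. Each MRL/+ group held only 0 to 20 counts of any of the 10 genes. The SE of their log2 age difference in MRL/+ ran from 1.11 for Cd4 to 2.54 for Cd3d. These 2 comparisons could therefore hardly call any of the 10 genes, and they do not show that the levels were alike.

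Levels of different genes were compared per kilobase, since longer transcripts give more counts. With the exon bases of the deposited table as length, Trbc2 was highest in MRL/lpr at 12 weeks with 28.5 ± 20.0 CPM per kilobase (n = 6), followed by Trbc1 with 15 ± 9.85, Trac with 9.45 ± 6.33, Cd3d with 6.56 ± 5.12 and Cd3g with 5.79 ± 3.88. Cd4 stood at 3.73 ± 2.99, Cd8b1 at 1.90 ± 1.70, Cd8a at 1.55 ± 1.09, Cd247 at 1.55 ± 0.944 and Cd3e at 1.15 ± 0.819. Trbc2 was above Trbc1, Trbc1 above Trac and Cd4 above Cd8b1 in 6 of 6 libraries. Trac against Cd3d, Cd3d against Cd3g, Cd8b1 against Cd8a and Cd8a against Cd247 kept their order in 4 of 6, so these neighbours did not differ beyond their spread. The table's exon bases include alternative exons, and with the longest coding or constant-region transcript as length, chosen after seeing the data, Cd3g moved to second place at 18.5 ± 12.4 and Cd3e rose from the tenth place to the seventh at 3.20 ± 2.28. Cd4 at 4.83 ± 3.88 stayed above Cd8b1 at 1.90 ± 1.70 and Cd8a at 1.81 ± 1.27 with either length.

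**Figure D3:**
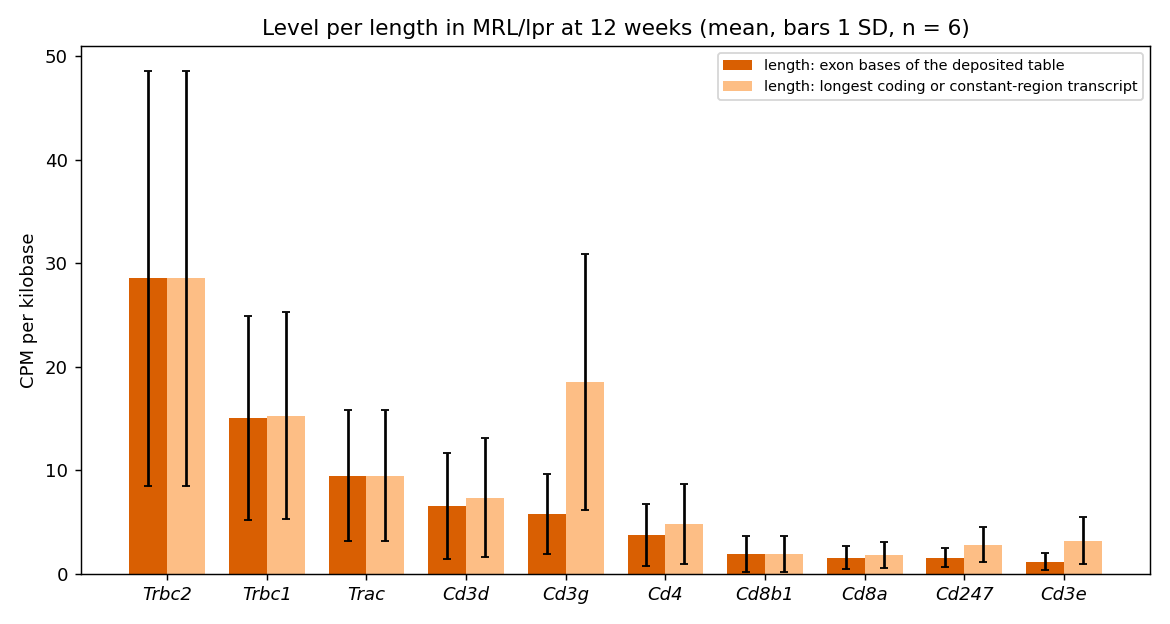
Mean CPM per kilobase with 1 SD for the 10 genes in MRL/lpr at 12 weeks (n = 6), with length taken as the exon bases of the deposited table (dark bars) or as the longest coding or constant-region transcript (light bars). Trbc2 is highest with either length, and Cd3g and Cd3e change place.

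The ratios of coreceptor to CD3 counts were taken within each library, so that they do not depend on its size. A ratio of counts also holds the lengths of the transcripts, and it is compared between libraries only. At 12 weeks the ratio of Cd4 to the summed counts of Cd3d, Cd3e and Cd3g was 0.256, 0.400, 0.217, 0.624, 0.413 and 0.755 in the MRL/lpr libraries, listed by replicate number, with a mean of 0.444 ± 0.209 (SD, n = 6). At 16 weeks it was 0.432, 0.287, 0.294, 0.805, 0.241 and 0.50, with a mean of 0.427 ± 0.210 (n = 6). Replicate 6 of 12 weeks and replicate 4 of 16 weeks were the highest, and the ratio differed 3.71-fold between the lowest and the highest of the 12 libraries. The exact 95% interval, for counting error only, was 0.726 to 0.893 for the highest library and 0.162 to 0.287 for the lowest. The ages overlapped fully: the mean log2 ratio was -1.31 ± 0.70 at 12 weeks and -1.35 ± 0.65 at 16 weeks. Their difference was -0.05, with a 95% interval of -0.92 to 0.85 by inversion of the exact test (exact two-sided permutation p 0.894, adjusted p 0.90 over 7 ratios).

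The ratio of the CD8 chains had a narrower range over the libraries. The ratio of Cd8a plus Cd8b1 to the CD3 chains was 0.241, 0.310, 0.139, 0.247, 0.204 and 0.250 at 12 weeks, a mean of 0.232 ± 0.057 (n = 6). Those of 16 weeks were 0.178, 0.212, 0.229, 0.245, 0.168 and 0.191, a mean of 0.204 ± 0.0301 (n = 6). The extremes were 2.24-fold apart over the 12 libraries, and replicate 3 of 12 weeks was the lowest. The age difference in log2 ratio was -0.16 (95% interval -0.52 to 0.25, exact permutation p 0.403, adjusted p 0.871) and did not pass. All coreceptor chains together came to 0.676 ± 0.239 of the CD3 counts at 12 weeks and 0.630 ± 0.227 at 16 weeks, from 0.356 in replicate 3 of 12 weeks to 1.05 in replicate 4 of 16 weeks.

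**Figure D4:**
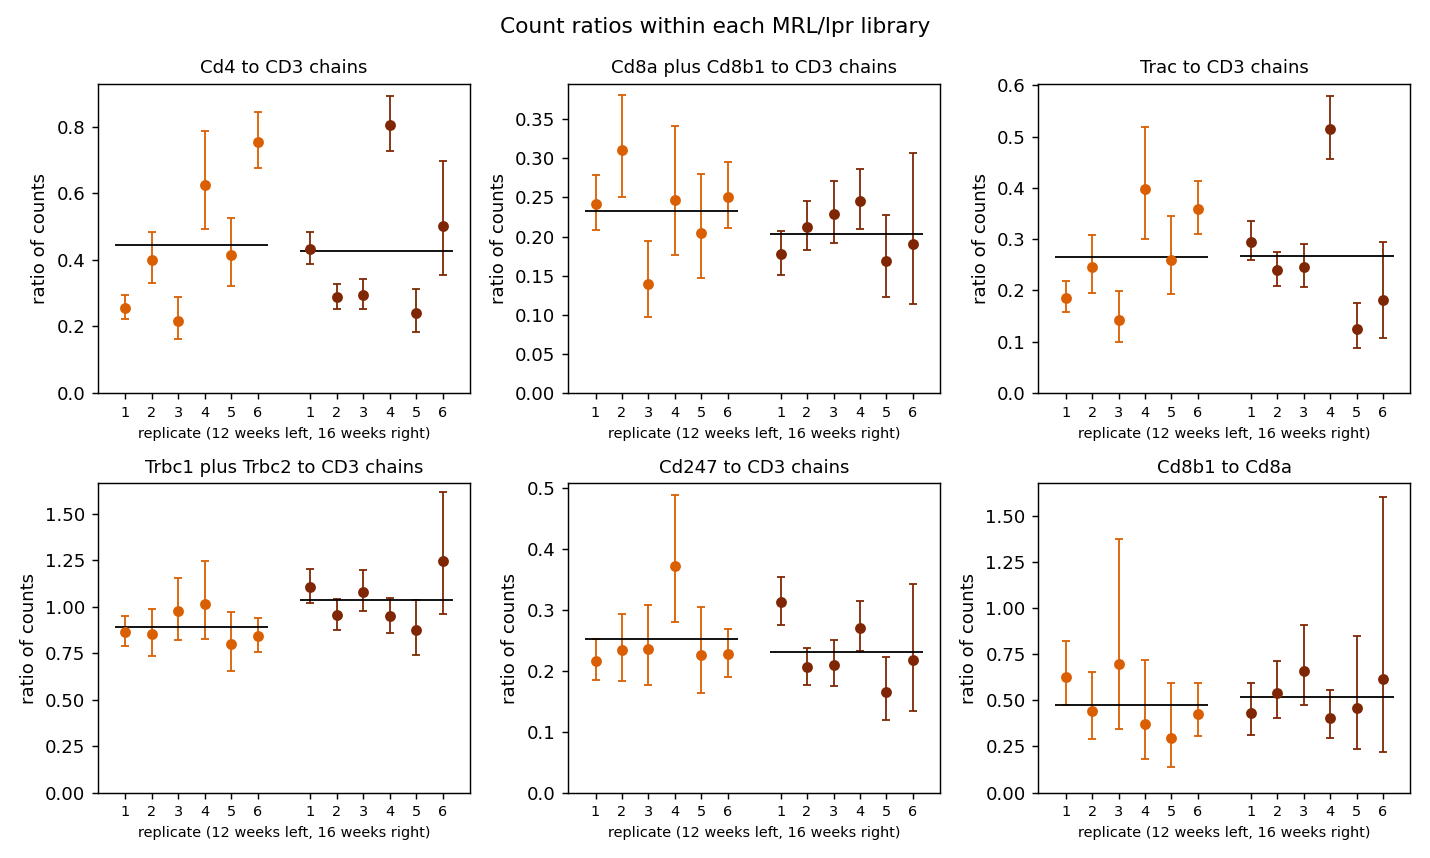
Ratio of counts within each MRL/lpr library for 6 pairs of chains, with exact 95% intervals for counting error and the mean of each age as a black line. The ratio of Cd4 to the CD3 chains ranges from 0.217 to 0.805 over the 12 libraries, the ratio of the CD8 chains from 0.139 to 0.310.

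The controls held too few counts for a ratio per library. Pooled over 3 libraries, MRL/+ held 20 counts of Cd4 to 4 of the CD3 chains at 12 weeks, a ratio of 5.0 (exact 95% interval 1.67 to 20.1), and 19 to 7 at 16 weeks, a ratio of 2.71 (1.09 to 7.64). The pooled MRL/lpr ratios were 0.441 (0.412 to 0.471) and 0.433 (0.410 to 0.458), below both control intervals. For the CD8 chains MRL/+ held 2 counts to 4 and 2 to 7, whose intervals of 0.0452 to 3.49 and 0.0290 to 1.5 include the MRL/lpr ratios of 0.240 and 0.209. These intervals cover counting error only, and no test over libraries was made. No library of sorted T cells is among the samples to set the MRL/lpr ratios against, and the data give no share of double-negative cells.

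Markers of other cells that can make the coreceptors passed in part. Among all genes tested, 5.01% were called higher at 12 weeks and 8.49% at 16 weeks. Of 5 markers of type 1 dendritic cells, which can carry Cd8a, 4 passed higher at each age, and their summed level was 16.0 to 113 CPM in MRL/lpr and 6.04 to 8.31 in MRL/+. Of 6 markers of other dendritic cells, some of which carry Cd4, 4 were tested, and 2 passed at 12 weeks and 3 at 16 weeks. Their sum was 8.52 to 53.2 CPM in MRL/lpr and 4.15 to 16.8 in MRL/+. Of 5 markers of plasmacytoid dendritic cells 1 passed at 12 weeks, Ly6d, which B cell progenitors also make, and 2 at 16 weeks, while Siglech and Ccr9 did not pass at either age. Macrophage markers passed for 6 of 10 genes at 12 weeks and 8 of 10 at 16 weeks, with sums of 383 to 3675 CPM in MRL/lpr and 99.6 to 175 in MRL/+. B cell markers passed for 5 of 5 at both ages, from 3.60 to 116 CPM against 0.157 to 0.479. At these control levels the B cell markers passed the filter through MRL/lpr, as did Ly6d, with 0 counts in MRL/+ at 12 weeks and 1 at 16 weeks. The shares over all genes are not a like background for them. Without the 4 libraries, at 12 weeks 1 marker of type 1 dendritic cells passed, Clec9a, and 0 of the other dendritic, plasmacytoid, macrophage and B cell lists. At 16 weeks 3, 1, 1, 6 and 2 markers passed in these 5 lists, in the order given. The part of these cells in the levels of Cd4 and Cd8a was not tested. The 4 thymocyte genes, Rag1, Rag2, Dntt and Ptcra, were too low to test, at 0 to 0.603 CPM in sum in MRL/lpr and 0.157 to 0.390 in MRL/+.

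The remaining chains set the coreceptor ratios in context. The beta constant chains kept the steadiest ratio to the CD3 chains, 0.892 ± 0.084 at 12 weeks and 1.04 ± 0.135 at 16 weeks (n = 6 each), from 0.80 to 1.24. The ratio of Trac ran from 0.142 to 0.397 at 12 weeks and from 0.125 to 0.514 at 16 weeks, 4.10-fold over the 12 libraries. The SD of the log2 ratio to the CD3 chains was taken around the mean of each age and pooled over the 12 libraries. It was 0.67 for Cd4 and 0.62 for Trac, against 0.37 for Cd8a, 0.34 for Cd8b1, 0.31 for Cd247, 0.21 for Trbc2 and 0.17 for Trbc1. The 3 libraries with the highest Cd4 ratio, replicate 4 of 16 weeks and replicates 6 and 4 of 12 weeks, were also the 3 with the highest Trac ratio, and both ratios share a denominator. Against Trbc1 plus Trbc2, which the Cd4 ratio does not use, Trac was again highest in these 3, at 0.542, 0.425 and 0.391, with 0.143 to 0.325 in the other 9. Mitochondrial transcripts took 5.12%, 4.78% and 8.42% of the counts in these libraries, and the first 2 of these are the lowest shares among the 12 MRL/lpr libraries. Pou2f1, the gene named above that many cell types make, stood at 17.3, 14.9 and 8.87 CPM there, with the first 2 the highest of the 12. The part of RNA quality or library makeup in these ratios was not tested.

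None of the other 5 ratios passed a test between the ages in MRL/lpr. The differences in mean log2 ratio were 0.15 (95% interval -0.51 to 0.83) for Cd4 to Cd8a, 0.15 (-0.34 to 0.64) for Cd8b1 to Cd8a, -0.13 (-0.50 to 0.23) for Cd247 to the CD3 chains, -0.04 (-0.82 to 0.77) for Trac to the CD3 chains and -0.18 (-0.49 to 0.12) for Trbc1 to Trbc2. Their exact permutation p ran from 0.229 to 0.90, and adjusted over 7 ratios from 0.871 to 0.90. Cd4 counts were 1.73 to 4.62 times those of Cd8a in the 12 libraries. Cd8b1 came to 0.477 ± 0.153 of Cd8a at 12 weeks and 0.518 ± 0.103 at 16 weeks. Trbc1 came to 0.582 ± 0.0889 of Trbc2 at 12 weeks and 0.515 ± 0.0871 at 16 weeks, with the limit on the split of these genes given above.

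Across the 6 libraries of an age, log2 CPM of the CD8 chains rose with that of the CD3 chains. Pearson's r was 0.938 at 12 weeks and 0.988 at 16 weeks, each with an exact permutation p of 0.00556 and an adjusted p of 0.0111 over 4 relations. Spearman's rho was 0.829 at both ages (exact permutation p 0.0583, adjusted p 0.103). Without the 2 libraries farthest from the median CD3 level, r was 0.884 and 0.703. For Cd4, r was 0.760 at 12 weeks (exact permutation p 0.0875, adjusted p 0.0875) and 0.870 at 16 weeks (exact permutation p 0.0153, adjusted p 0.0204), with rho 0.771 at both ages (exact permutation p 0.103, adjusted p 0.103). Without the 2 farthest libraries, r was 0.934 at 12 weeks and 0.142 at 16 weeks, so the relation of 16 weeks rests on those libraries. In CPM in place of log2 CPM it did not pass, with r 0.675 (exact permutation p 0.138, adjusted p 0.182). The tests of Spearman's rho did not pass for any of the 4 relations.

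**Figure D5:**
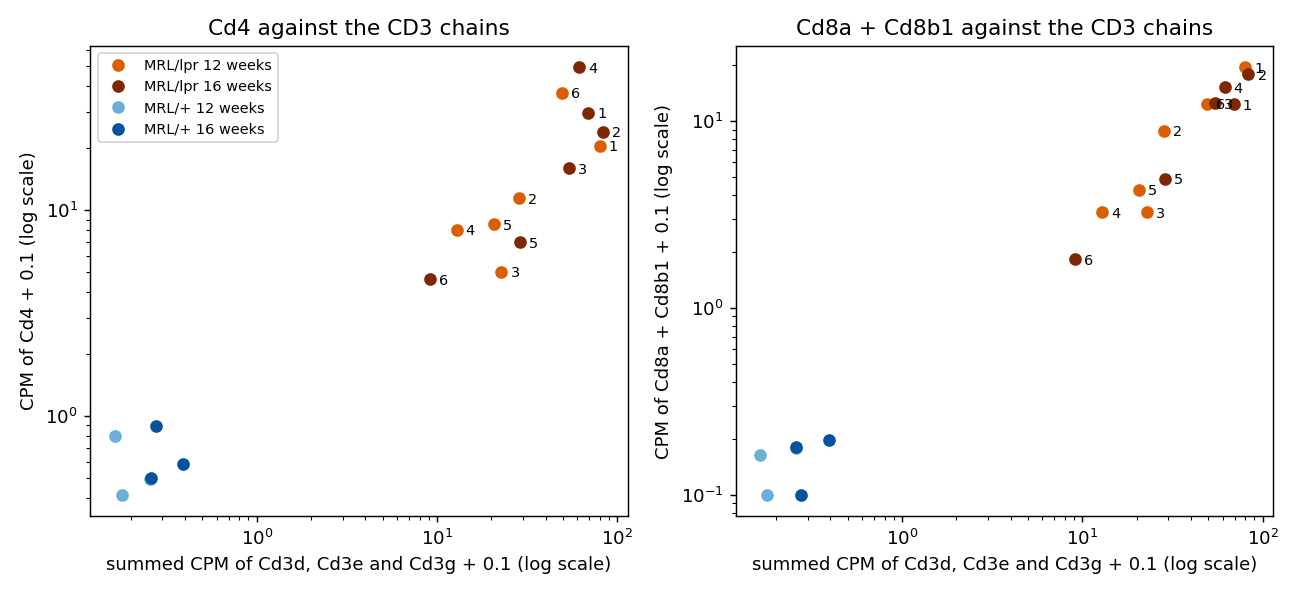
CPM of Cd4 (left) and of Cd8a plus Cd8b1 (right) against the summed CPM of Cd3d, Cd3e and Cd3g per library, with 0.1 added and log axes on both sides; numbers are replicates of MRL/lpr. The CD8 chains lie close to a line with the CD3 chains, while replicate 4 of 16 weeks and replicate 6 of 12 weeks lie above the other MRL/lpr libraries for Cd4.

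Most genes listed for the steps below the receptor passed higher. Of 26 genes of proximal T cell receptor signalling, 25 were tested, and 19 passed higher at 12 weeks and 23 at 16 weeks, with 0 lower at either age, where 5.01% and 8.49% of all genes were called higher. Some of them passed the filter through MRL/lpr, such as Themis, Lax1 and Cd5, with 0 to 5 counts in MRL/+ at each age. The shares over all genes are not a like background for these. Without the 4 libraries 0 of the 25 passed at 12 weeks and 15 at 16 weeks, and all 19 and 23 genes kept a log2 fold change above 0. The list had a median log2 fold change of 4.56 and 5.26 (4.48 and 5.08 with genes without control counts at their bound), against -0.013 and 0.025 over all genes. Of the 4 genes named next, none passed at 12 weeks without the 4 libraries (edgeR adjusted p 0.0649 to 0.0968), and all 4 passed at 16 weeks. Themis, which sets receptor sensitivity during T cell selection, stood at 1.62 ± 0.620 CPM in MRL/lpr at 12 weeks, with 129 counts against 1 in MRL/+ (edgeR adjusted p 0.00242). Its log2 fold change of 5.58 was 7.40 without MRL/+ 12 weeks replicate 3, which held the 1 control count, so that the size then depends on the prior count. Lat, the adaptor that links the receptor to calcium and Ras signals, rose at 12 weeks from 0.384 ± 0.129 CPM to 9.33 ± 5.99 (log2 fold change 4.56, SE 0.79, edgeR adjusted p 0.00353) and to 13.1 ± 7.92 from 0.385 ± 0.143 at 16 weeks (5.07, SE 0.82, adjusted p 0.0018). Lax1, an adaptor that dampens receptor signals, and Cd5, a receptor that does so too, passed at 12 weeks with 710 counts against 3 and 373 against 1 (edgeR adjusted p 0.00403 and 0.00414). Without MRL/+ 12 weeks replicate 1 their log2 fold changes moved from 6.75 to 7.52 and from 7.11 to 8.89, and the second was then fitted with no control count. The summed level of the list was 299 to 718 CPM in MRL/lpr and 233 to 252 in MRL/+. The control tissue thus made part of the list as well. The SD of the log2 ratio to the CD3 chains was pooled within ages over the 12 MRL/lpr libraries. It was largest for Rasgrp1 (1.36), Thy1 (1.19), Prkcq (1.12) and Plcg1 (1.04), and smallest for Sit1 (0.28), Lat (0.36) and Lck (0.38).

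Chains of the gamma delta receptor were found at low levels. Of 5 constant genes, 3 were tested: Tcrg-C4 and Tcrg-C2, constant genes of the gamma chain, and Trdc, the constant region of the delta chain. These 3 held 0 to 2 counts in MRL/+ at each age, so they passed the filter through MRL/lpr. Over all genes, 5.01% were called higher at 12 weeks and 8.49% at 16 weeks. Tcrg-C4 held 64 and 91 counts in MRL/lpr at 12 and 16 weeks against 1 and 0 in MRL/+ (edgeR adjusted p 0.017 and 0.00462). Tcrg-C2 held 108 and 135 counts against 1 and 0 (adjusted p 0.0319 and 0.013). Trdc held 20 and 50 counts against 2 and 0, and passed at 16 weeks (adjusted p 0.0227) but not at 12 weeks (adjusted p 0.30). All 5 genes together summed to 0.526 to 7.29 CPM in MRL/lpr. The alpha beta constant genes Trac, Trbc1 and Trbc2 had means of 8.84, 11.3 and 19.7 CPM in MRL/lpr at 12 weeks. At 16 weeks their means were 15.05, 17.8 and 33.65 CPM. The gamma constant genes are similar in sequence, so their split is uncertain. With the 4 libraries left out, 0 of the 3 passed at 12 weeks and 1 at 16 weeks, Tcrg-C4. Several of these calls were also lost with 1 library left out. Tcrg-C2 and Trdc did not pass at 16 weeks when any MRL/+ library of that age was left out, with adjusted p from 0.0506 to 0.0891. At 12 weeks Tcrg-C2 did not pass without MRL/lpr replicate 1 (adjusted p 0.0575) or without any of the 3 MRL/+ libraries (0.0937 to 0.14), and Tcrg-C4 did not pass without MRL/+ replicate 1 or 3 (0.0999 and 0.0946).

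Transcription factors that set the coreceptor choice of T cells were listed with 11 genes, all tested. Of these 1 passed at 12 weeks and 4 at 16 weeks, all higher, where 5.01% and 8.49% of all genes were called higher, so the count of 12 weeks is near the background. The median log2 fold change was 0.39 and 0.52, against -0.013 and 0.025 over all genes. Without the 4 libraries 0 passed at 12 weeks and 1 at 16 weeks, Runx3. Runx3, which shapes CD8 T cells and silences Cd4, stood at 3.43 ± 2.44 CPM against 0.222 ± 0.248 at 12 weeks (edgeR adjusted p 0.0241) and held 421 counts against 2 at 16 weeks (adjusted p 0.00372). At 12 weeks it did not pass without any one of the 3 MRL/+ libraries (adjusted p 0.0542 to 0.127). Tcf7, needed in early and memory T cells, was at 8.61 ± 5.10 against 1.96 ± 0.213 at 12 weeks (adjusted p 0.0568, or 0.0439 without MRL/lpr replicate 5) and rose to 18.2 ± 12.2 from 1.88 ± 0.282 at 16 weeks (adjusted p 0.00582). Bcl11b, which fixes T cell identity, passed at 16 weeks with 7.25 ± 3.88 against 1.33 ± 0.667 CPM (adjusted p 0.0264), but not without any one MRL/+ library of that age (0.0706 to 0.132). Zbtb7b, which sets the CD4 fate and is also made in epithelia, was at 49.8 ± 4.57 against 64.8 ± 2.21 CPM at 12 weeks (adjusted p 0.0966).

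Genes described in double-negative T cells of lpr mice, which other cells make too, were also examined. Of 7 genes 5 were tested, 3 passed higher at 12 weeks and 4 at 16 weeks, and 1 was at 0 in all libraries. At these ages 5.01% and 8.49% of all genes were called higher. Fasl, Pdcd1 and Ifng held 0 to 4 counts in MRL/+ at each age, so they passed the filter through MRL/lpr. The shares over all genes are not a like background for them. Without the 4 libraries 0 passed at 12 weeks and 3 at 16 weeks, Ptprc, Fasl and Pdcd1. Ptprc, also in the signalling list, the leukocyte antigen whose B220 form these cells carry, rose to 57.7 ± 41.6 from 2.59 ± 0.682 CPM at 12 weeks (edgeR adjusted p 0.00477). The counts are per gene and do not separate the B220 form. Fasl, the ligand of Fas, held 145 counts against 2 at 12 weeks (adjusted p 0.00687) and Pdcd1, an inhibitory receptor, 310 against 4 (adjusted p 0.00937). Both lost the call at 12 weeks without MRL/+ replicate 1 or 3, with adjusted p of 0.0524 and 0.0517 for Fasl and 0.0679 and 0.0527 for Pdcd1. Ifng, the cytokine interferon gamma, held 89 counts against 0 at 12 weeks (adjusted p 0.0504) and 125 against 0 at 16 weeks (adjusted p 0.0305). At 16 weeks it did not pass without MRL/lpr replicate 1 (0.0504) or any MRL/+ library (0.0851 to 0.104), and at 12 weeks it passed without MRL/lpr replicate 4 (0.0456) or 5 (0.0388).

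Counts over variable segments of the receptor loci were found almost solely in MRL/lpr for the beta locus. The 35 variable segments of the beta locus together held 718 counts in MRL/lpr at 12 weeks and 1214 at 16 weeks, with 44 to 215 and 35 to 367 per library, against 2 and 1 in MRL/+. Between 12 and 21 of the 35 segments had a count in each MRL/lpr library. Trbv13-1 held 15.2% of the beta segment counts over the 12 libraries (9.80% to 25.7% per library), Trbv19 12.9% (6.56% to 20.0%) and Trbv13-2 12.3% (5.71% to 16.2%). All 3 had counts in 12 of 12 libraries. The 128 segments of the alpha locus held fewer counts, 102 and 224 in MRL/lpr against 8 and 9 in MRL/+, with 2 to 35 segments found per MRL/lpr library. Over the pooled MRL/lpr libraries, which held 4 to 65 such counts each, Trav3-3 took 10.7% (0% to 75.0% per library), Trav4-4-dv10 4.91% (0% to 11.1%) and Trav14d-3-dv8 4.29% (0% to 20.0%), and none of these 3 was found in more than 8 of the 12 libraries. Segments of 1 family are similar in sequence, so reads that match several of them may be missing or misplaced.

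The 10 genes outside the complex whose log2 CPM followed the mean of Cd3d, Cd3e and Cd3g most closely over the 12 MRL/lpr libraries were Nkg7, Gimap6, Ms4a4b, Gimap4, H2-D1, Tbc1d10c, Irf1, Sept1, H2-Q10 and Cd84, out of 12879 candidates. Pearson's r ran from 0.979 for Nkg7, a granule protein of cytotoxic cells, to 0.970 for Cd84, an adhesion receptor of lymphocytes. Within an age, over 6 libraries, r was 0.987 and 0.975 for Nkg7 and 0.944 and 0.996 for Ms4a4b. By the same measure Trbc1 had an r of 0.990, Trbc2 0.977, Cd247 0.964, Cd8b1 0.955, Cd8a 0.953, Trac 0.912 and Cd4 0.856, so Cd4 was the least alike of these 7 genes, which are not in the mean. H2-D1 and H2-Q10 are close copies of other genes of their family, so their counts are uncertain. These correlations describe the 12 libraries, with no test.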

How the data were processed

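Choroid plexus RNA of 18 libraries was prepared with an Illumina TruSeq kit and sequenced by the submitters, per the labels' protocols. Per the submitters' processing notes, STAR 2.5.3a, featureCounts 1.26.0, DESeq2 1.16.1 and GRCm38 were used. The deposited values are raw counts per gene, all whole numbers, from 11164284 to 14602253 per library. The sources used here do not give the strand setting or the treatment of reads with several matches.

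Counts were filtered with filterByExpr by group (16598 genes), scaled by TMM and fitted with the robust quasi-likelihood method of edgeR 4.0.16 in R 4.3.3, with 1 mean per group over all 18 libraries. P-values of 5 contrasts were adjusted by Benjamini-Hochberg over all genes tested, and a gene was called at an adjusted p under 0.05. CPM use TMM-scaled library sizes. Where the controls held 0 counts, a fold is a lower bound against 3 counts over the pooled group, and with 1 to 3 counts it is a ratio of pooled counts with an exact 95% interval. Exact intervals of counts cover counting error only and not the spread among libraries. PCR copies are not independent molecules, so the counting error itself may be larger than they show. Ratios had 0.5 added on the log2 scale and were compared between ages with exact two-sided permutation tests (SciPy 1.17.1), adjusted over 7. The fit was tried on simulated counts for the strain comparison at 12 weeks. The same spread was set for every gene, smaller than that of the 10 genes in MRL/lpr, so it does not test the fit at their spread. The 10 genes, 17 lists and the naming rule were chosen with earlier results of these data known. Of each list up to 4 genes with the smallest p at 12 weeks were named, beside the 10 genes themselves and the 10 most alike. Pou2f1, Fas, Prkcq, Rasgrp1, Thy1 and Plcg1 were named after their values were seen. DESeq2 1.42.0, limma 3.58.1, other scalings, no filter, fewer libraries and other denominators were tried.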

Additional observations from a re-analysis of the deposited data

Results flagged for a closer look

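Of 44 sets of 6 MRL/lpr libraries examined, which were the level of each of the 10 genes and 12 ratios at each age, 3 held a library set apart from the other 5 by Dixon's criterion at 95%, and chance alone marks about 1 set in 20. The ratio of Cd247 to the CD3 chains was 0.371 in MRL/lpr 12 weeks replicate 4, against 0.216 to 0.235 in the other 5. That library is one of those with pineal transcripts, and Pou2f1, on the other strand of Cd247, was at 8.87 CPM in it, within the range of 6.62 to 14.9 CPM of its group. The ratio of Trac to Trbc1 plus Trbc2 was 0.542 in MRL/lpr 16 weeks replicate 4, against 0.143 to 0.266 in the other 5. The ratio of Cd3e to Cd3g was 0.345 in MRL/lpr 12 weeks replicate 6, against 0.200 to 0.245 in the other 5.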

How the results depend on the processing

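The count of the 10 genes called in the strain comparisons stayed at 10 under DESeq2, DESeq2 size factors, scaling to epithelium, no filter, the groups of the comparison only and limma with sample weights. It also stayed at 10 with each library of the groups compared left out in turn. It fell to 4 at 12 weeks without the 4 libraries with other tissue, where fewer samples were fitted, and of the 19 signalling genes called at 12 weeks 0 were then called. The count of all genes called moved more. At 12 weeks it was 1055, 34 without those 4 libraries, 3515 with limma and 1656 with DESeq2, and 259 to 1463 with a library left out. At 16 weeks it was 1849, 7851 when scaled to epithelium, 503 without the 4 libraries, 4864 with limma, and 665 to 2596 with a library left out. Scaling to epithelium put the median of all genes at 0.302 at 12 weeks and 0.774 at 16 weeks and made 99.0% and 99.7% of the calls higher, against 78.9% and 76.3%. DESeq2 size factors gave 86.8% and 80.2%, no filter 91.5% and 87.3%, and limma 45.4% and 49.6%. The age comparison in MRL/lpr called 6 genes, 0 with its own groups only, 0 without the 4 libraries, 21 with limma, 84 with DESeq2 and 1 to 9 with a library left out, and that in MRL/+ called 1724 with limma and 12 with DESeq2. The ratio of Trac to the CD3 chains between ages turned to 0.02 without MRL/lpr 12 weeks replicates 1 and 4. With a library left out, the log2 difference ran from -0.26 to 0.13 for Cd4, from -0.30 to -0.07 for the CD8 chains and from -0.25 to 0.15 for Trac, each to the CD3 chains, and no ratio passed. For Cd4 against the CD3 chains r was 0.675 at 16 weeks in CPM, where it no longer passed (exact permutation, adjusted p 0.182), and 0.934 and 0.142 without the 2 farthest libraries. For the CD8 chains at 16 weeks r was 0.703 without them. Zbtb7b at 16 weeks was 0.36 when scaled to epithelium. The cause of these moves was not tested. Libraries with the same replicate number had correlations of -0.619 to 0.45. Between the ages of MRL/lpr, 2 of 6 libraries of 12 weeks and 1 of 6 of 16 weeks correlated best with their own number. These values show no clear pairing by number in MRL/lpr, but they cannot exclude a preparation shared by number. With the replicate number as a block, 10 of the 10 genes were called at each age, 1092 and 1424 genes in all, and 1 gene between ages in MRL/lpr. In the controls most of the 10 genes held 0 to 5 counts in all at each age, which limits the precision of their folds.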

Other observations

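MRL/+ 12 weeks replicate 1 held 217 counts of Pou2f1 and a mitochondrial share of 5.18%, the lowest of the 6 MRL/+ libraries, beside the same combination in MRL/lpr 12 weeks replicate 6 (218 counts, 4.78%) and MRL/lpr 16 weeks replicate 4 (235 counts, 5.12%). These values were noticed after the data were seen and were not tested.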
